A study of Arabidopsis thaliana with 6 samples.

Results

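The ZHOUPI pathway is a set of 7 Arabidopsis thaliana genes for endosperm breakdown and for the cuticle of the embryo. The members were chosen for their known roles, but with earlier results of these data known. Each was found by locus identifier among the 33323 loci of the deposited expression table. They are ZOU (AT1G49770, ZHOUPI, named RGE1 in RefSeq), ICE1 (AT3G26744), ALE1 (AT1G62340), KRS (AT1G50650, KERBEROS), TWS1 (AT5G01075, TWISTED SEED 1), GSO1 (AT4G20140) and GSO2 (AT5G44700). KRS and TWS1 carry no name in the reference gene table and are called by the names given to these loci in the choice of members. The first digit of a locus identifier is its chromosome. Polyadenylated RNA was sequenced from dissected whole seeds, taken 6 days after pollination, in 3 DD25::IaaH libraries and 3 wild type (WT) libraries, described as biological replicates. DD25::IaaH seeds came from self-pollinated Col-0 plants with a transgene in which the DD25 promoter, known for activity in the central cell and endosperm, drives IaaH. IaaH is a bacterial hydrolase that converts indole-3-acetamide to auxin. WT seeds came from self-pollinated Col-0 plants without the transgene. The study asked how auxin affects the formation of cell walls in the endosperm. Whether the DD25::IaaH plants were 1 line or several, and how many plants gave each library, is not given in the sources used here.

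As background, the endosperm of Arabidopsis first grows as a syncytium, then forms cells, and is later broken down as the embryo expands into its space. ZOU and ICE1 are basic helix-loop-helix transcription factors that bind each other in the endosperm and are needed both for that breakdown and for an intact cuticle on the embryo. The cuticle is checked by a signal that crosses between the tissues: the embryo makes the TWS1 precursor, the endosperm protease ALE1 cuts it, and the freed peptide binds the receptor kinases GSO1 and GSO2 on the embryo surface. KRS is a secreted cysteine-rich protein of the endosperm, which acts downstream of ZOU in the sheath that coats the embryo.

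All 7 genes were detected in every library and passed the filter for testing, a mean of at least 0.5 RPKM (reads scaled to gene length and library depth) over the 6 libraries. None of the 7 passed the limma test at an adjusted p of 0.05, against 15.0% of the 20880 genes tested (8.25% higher and 6.72% lower in DD25::IaaH). In voom, run on read numbers worked out from the steps between RPKM values, 0 of 7 passed, against 16.3% of all genes. At an unadjusted p under 0.05, 1 of 7 was found, TWS1, against 28.8% of all genes. The fitted level of 5 members was below and that of 2 above WT, and their median log2 fold change (DD25::IaaH minus WT) was -0.22, against 0.03 over all tested genes. In whole seeds, fewer cells of a type and less RNA per cell cannot be told apart.

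**Figure D1:**
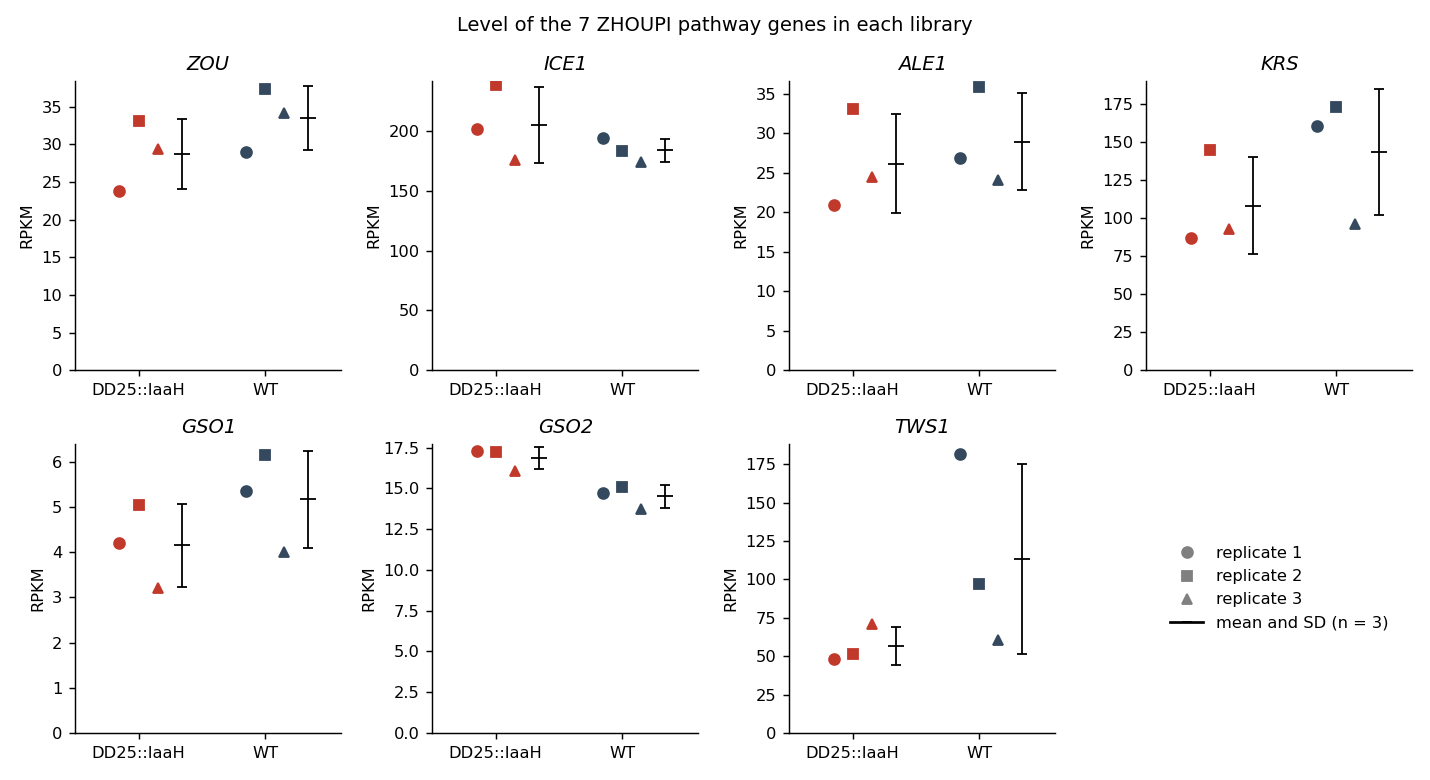
RPKM (vertical axes, linear and from 0) of the 7 genes in each DD25::IaaH library (red) and each WT library (dark blue), with the group mean and SD (n = 3). GSO2 is the gene whose groups do not overlap, and TWS1 in WT runs from 60.8 to 182 RPKM.

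The libraries differed in depth and in the loci they covered. Depth rebuilt from the RPKM steps was 6.50 to 10.8 M reads (M for mega) in DD25::IaaH and 8.95 to 17.8 M reads in WT. Annotated pseudogenes had reads at 23.3% to 33.9% of loci in DD25::IaaH, against 79.1%, 61.2% and 28.9% in WT 1, WT 2 and WT 3. The locus AT2G01021 held 19.5% to 30.6% of the summed RPKM in DD25::IaaH and 22.6% to 24.1% in WT. In addition, 81 genes were near-absent in DD25::IaaH, taken as at least 3 RPKM in every WT library and below the lowest WT value divided by 15 in every DD25::IaaH library. None of them was on chromosome 1. ICE1 and GSO1, 2 of the 7 members, lay inside the locus ranges those genes span on chromosomes 3 and 4. These ranges are wide, from AT3G16400 to AT3G61020 and from AT4G01593 to AT4G37320. All such ranges together hold 7216 of the 20880 tested genes, the 81 near-absent genes included. Inside the ranges 11.9% of tested genes were called lower and 8.74% higher, against 3.99% and 7.99% outside them.

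ZOU, the endosperm regulator at the head of the pathway, had 23.8, 33.1 and 29.4 RPKM in DD25::IaaH 1 to 3, against 29.0, 37.4 and 34.1 RPKM in WT 1 to 3. The groups overlapped, and the range within each was wider than the distance between the means. The means were 28.8 ± 4.64 RPKM in DD25::IaaH and 33.5 ± 4.24 RPKM in WT (SD, n = 3). The log2 fold change was -0.22 ± 0.16 (SE), with a 95% interval of -0.58 to 0.14 and an adjusted p of 0.401 with limma. These values rest on 253 to 315 reads in DD25::IaaH and 386 to 607 reads in WT.

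ICE1, the partner of ZOU that also acts in stomata and in the cold response, was the most abundant of the 7. It had 202, 238 and 175 RPKM in DD25::IaaH 1 to 3, against 194, 183 and 174 RPKM in WT 1 to 3. DD25::IaaH 2 stood above the other 5 libraries, and the lowest value of each group was almost the same. Its log2 fold change was 0.15 ± 0.14 (SE), with a 95% interval of -0.16 to 0.46 and an adjusted p of 0.528 with limma.

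ALE1, the subtilisin-like protease that cuts the TWS1 precursor, had 20.9, 33.1 and 24.5 RPKM in DD25::IaaH 1 to 3. In WT 1 to 3 it had 26.9, 35.8 and 24.1 RPKM. The ranges lay almost on top of each other, with 1 high library in each group. Means were 26.1 ± 6.24 RPKM in DD25::IaaH and 28.9 ± 6.13 RPKM in WT (SD, n = 3). The log2 fold change was -0.15 ± 0.20 (SE), with a 95% interval of -0.61 to 0.31 and an adjusted p of 0.689 with limma. Without WT 2, and without WT 1 and WT 2 together, it was 0.014 and 0.091.

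KRS, the endosperm protein of the embryo sheath, had 87.0, 145 and 92.7 RPKM in DD25::IaaH 1 to 3, against 161, 173 and 95.9 RPKM in WT 1 to 3. DD25::IaaH 2 was near the upper WT libraries, and WT 3 was near the lower DD25::IaaH libraries. Means were 108 ± 31.9 RPKM in DD25::IaaH and 143 ± 41.5 RPKM in WT (SD, n = 3). Limma gave a log2 fold change of -0.40 ± 0.26 (SE), with a 95% interval of -0.98 to 0.19 and an adjusted p of 0.357. The 2 highest KRS values were those of WT 1 and WT 2, which also had reads on the most pseudogenes. Without this pair the log2 fold change was 0.13, and without WT 3 it was -0.66 with an adjusted p of 0.0590.

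TWS1, the embryo-made ligand precursor, had the greatest difference in mean level among the members. It had 47.9, 51.3 and 70.7 RPKM in DD25::IaaH 1 to 3, against 182, 97.3 and 60.8 RPKM in WT 1 to 3. The groups overlapped, because DD25::IaaH 3 was above WT 3. Means were 56.6 ± 12.3 RPKM in DD25::IaaH and 113 ± 62.0 RPKM in WT (SD, n = 3). The log2 fold change was -0.87 ± 0.34 (SE), with a 95% interval of -1.65 to -0.09, an unadjusted p of 0.0322 and an adjusted p of 0.132 with limma.

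The spread of TWS1 in WT was wider than counting error. Its 95% Poisson counting intervals were 173 to 190 RPKM in WT 1 (1676 reads), 88.6 to 107 RPKM in WT 2 (452 reads) and 54.1 to 68.0 RPKM in WT 3 (303 reads), and none overlapped. The 3 WT levels lay in the same order as the share of pseudogenes with reads in those libraries. The part of those libraries' differences in the TWS1 result was not tested. Its log2 fold change was -0.46 without WT 1 and -0.12 without WT 1 and WT 2 together, with adjusted p of 0.299 and 0.850. Without WT 3 it was -1.25 with an adjusted p of 0.0121, so leaving out that library moved TWS1 past the threshold.

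**Figure D2:**
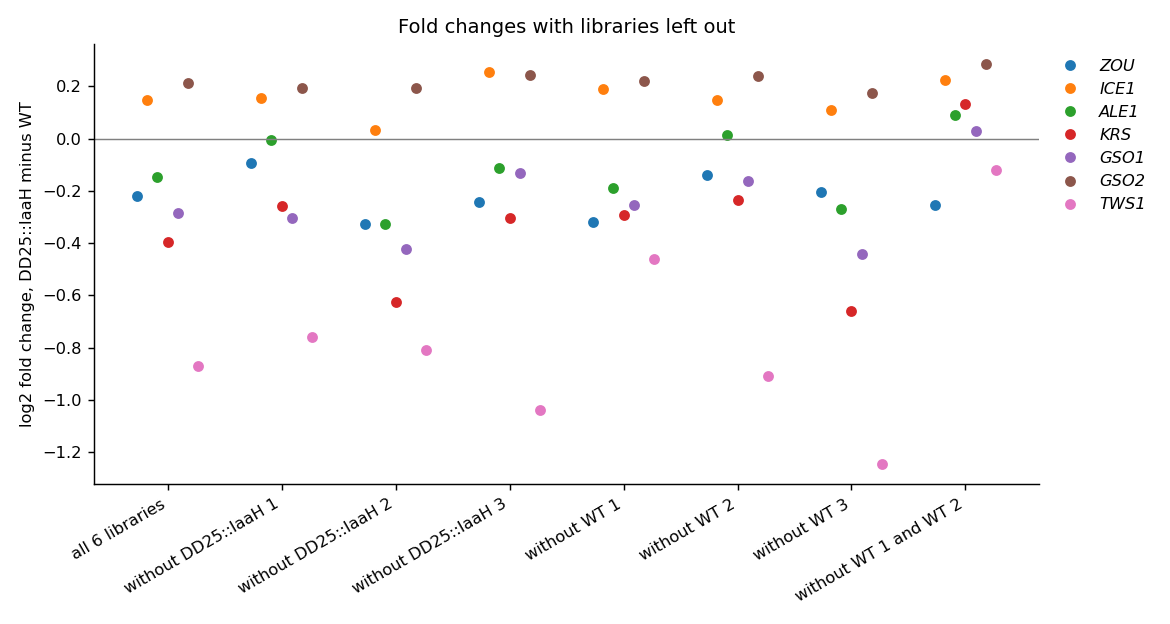
Log2 fold change, DD25::IaaH minus WT (vertical axis), of the 7 genes (colours) with all 6 libraries and with the libraries named on the horizontal axis left out. TWS1 runs from -1.25 without WT 3 to -0.12 without WT 1 and WT 2, while GSO2 stays between 0.17 and 0.29.

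GSO1 and GSO2 are paralogous leucine-rich repeat receptor kinases, and the authors' treatment of reads with several matches is not given in the sources used here. GSO1 had 4.21, 5.04 and 3.22 RPKM in DD25::IaaH 1 to 3, against 5.36, 6.15 and 4.01 RPKM in WT 1 to 3. WT 3 lay among the DD25::IaaH libraries. These levels rest on 117 to 181 reads in DD25::IaaH and 154 to 381 reads in WT. The log2 fold change was -0.29 ± 0.23 (SE), with a 95% interval of -0.80 to 0.23 and an adjusted p of 0.459 with limma. Without WT 1 and WT 2 together it was 0.027. GSO1 shares 337 exon bases with AT4G20150 on the other strand, which had 280 to 394 RPKM in DD25::IaaH and 262 to 447 RPKM in WT. The strand setting of the counting is not given, so reads of the 2 loci in the shared stretch cannot be told apart.

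GSO2 had 17.3, 17.3 and 16.1 RPKM in DD25::IaaH 1 to 3, against 14.7, 15.1 and 13.7 RPKM in WT 1 to 3. It was the 1 member of 7 whose groups did not overlap, with every DD25::IaaH library above every WT library, a pattern found for 33.3% of all tested genes in either direction and for 18.4% in this one. Means were 16.9 ± 0.675 RPKM in DD25::IaaH and 14.5 ± 0.687 RPKM in WT (SD, n = 3). Limma gave a log2 fold change of 0.21 ± 0.12 (SE), with a 95% interval of -0.07 to 0.49 and an adjusted p of 0.300. GSO2 was also the steadiest member. Its SD was 4.00% of the mean in DD25::IaaH and 4.73% in WT, where counting error alone gives 4.23% and 3.99%. For ZOU, ICE1, ALE1, KRS and GSO1 the SD was 15.5% to 29.5% of the mean in DD25::IaaH and 5.40% to 28.9% in WT, and counting error alone gives 1.64% to 8.51% in DD25::IaaH and 1.52% to 6.75% in WT.

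**Figure D3:**
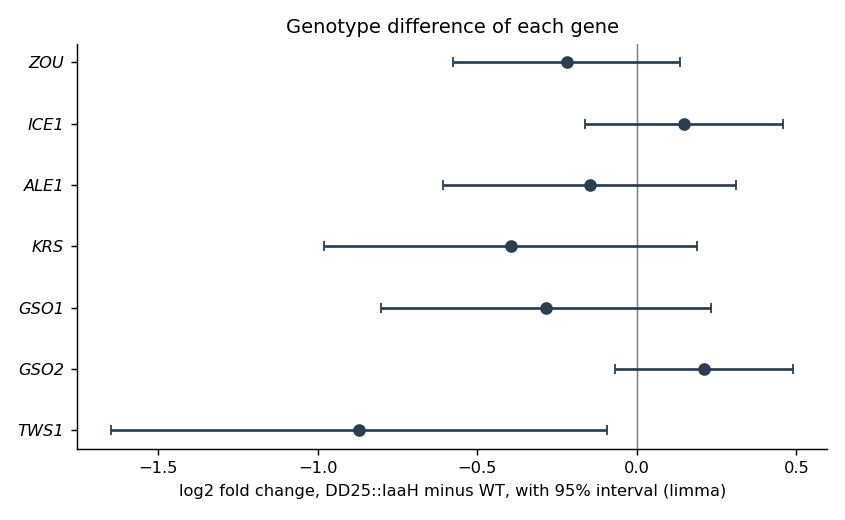
Log2 fold change, DD25::IaaH minus WT (horizontal axis), with its 95% interval from the limma fit over all genes, for the 7 genes (rows). The intervals of ZOU, ICE1, ALE1, KRS, GSO1 and GSO2 include 0, and that of TWS1 runs from -1.65 to -0.09.

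Since RPKM is a level per gene length, the members' levels can be set in order, within the limits of the lengths used. Lengths rebuilt from the RPKM steps equalled the reference exon lengths for ZOU and ALE1. They were shorter for the other members, such as KRS (525 against 728 bases) and ICE1 (2158 against 2521 bases). In DD25::IaaH the order was ICE1 (205 RPKM), KRS (108), TWS1 (56.6), ZOU (28.8), ALE1 (26.1), GSO2 (16.9) and GSO1 (4.16). The order was the same in WT, with ICE1 at 184 RPKM, KRS 143, TWS1 113, ZOU 33.5, ALE1 28.9, GSO2 14.5 and GSO1 5.17. ZOU and ALE1 overlapped in both genotypes, and KRS and TWS1 overlapped in WT. The other neighbours in the order did not overlap in range. By group mean, ICE1 stood above 96.8% of tested genes in DD25::IaaH and 96.5% in WT, and GSO1 above 27.5% and 32.4%.

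Ratios within a library do not depend on how libraries are scaled, and 5 were compared by a two-sided exact permutation test over the libraries, whose smallest possible p is 0.10 with 3 against 3. ALE1 was at 0.878, 1.00 and 0.833 times ZOU in DD25::IaaH 1 to 3, against 0.927, 0.958 and 0.706 times ZOU in WT 1 to 3. ALE1 was thus at or somewhat below the level of its regulator in each library, and the exact p was 0.80 (0.80 adjusted over the 5 ratios). KRS was at 3.73 ± 0.617 times ZOU in DD25::IaaH and 4.33 ± 1.39 times in WT (SD, n = 3; exact permutation p 0.70, adjusted 0.80). WT 1 had the highest of these ratios at 5.54 and WT 3 the lowest at 2.81.

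ZOU relative to ICE1 was 0.118, 0.139 and 0.168 in DD25::IaaH 1 to 3, against 0.149, 0.204 and 0.196 in WT 1 to 3. The groups overlapped through DD25::IaaH 3 and WT 1, and the exact permutation p was 0.20 (adjusted 0.333). The ligand gene TWS1 relative to the sum of both receptor genes was 2.23, 2.30 and 3.66 in DD25::IaaH 1 to 3, against 9.04, 4.59 and 3.42 in WT 1 to 3, with an exact permutation p of 0.20 (adjusted 0.333). Here too DD25::IaaH 3 lay above WT 3. GSO1 relative to GSO2 was 0.244, 0.292 and 0.200 in DD25::IaaH 1 to 3, against 0.364, 0.408 and 0.292 in WT 1 to 3. DD25::IaaH 2 and WT 3 were almost equal (0.2924 and 0.2916), and the exact permutation p was 0.20 (adjusted 0.333).

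**Figure D4:**
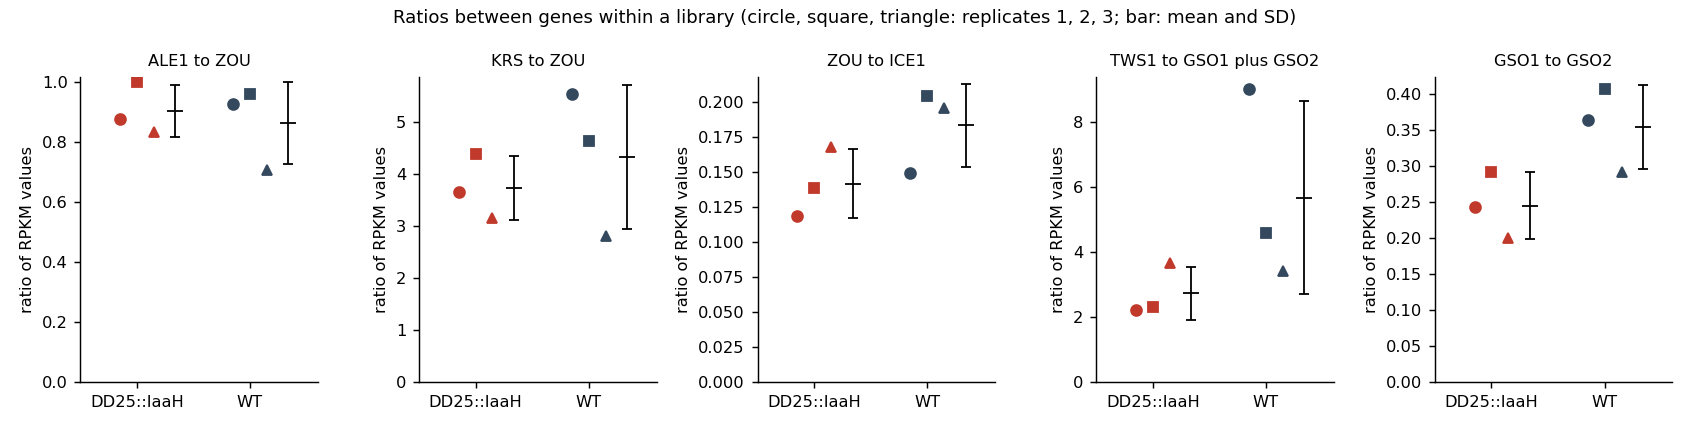
Ratio of RPKM values within a library (vertical axes, linear and from 0) for 5 pairs or sums of genes, in DD25::IaaH (red) and WT (dark blue), with group mean and SD (n = 3). In each of the 5 panels the groups overlap, and TWS1 to the receptors is highest in WT 1 at 9.04.

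The library-to-library profiles of some members were close and those of others were not. DD25::IaaH 2 was the highest DD25::IaaH library for ZOU, ICE1, ALE1, KRS and GSO1, and WT 2 was the highest WT library for ZOU, ALE1, KRS, GSO1 and GSO2. Likeness was measured as the root-mean-square difference between centred log2 profiles over the 6 libraries, among 19317 other genes that averaged 1 RPKM or more. Seen from ALE1, ZOU ranked 152nd in likeness, GSO1 455th and KRS 865th. Seen from KRS, GSO1 ranked 101st and ALE1 150th, and seen from ICE1, GSO2 ranked 261st. Other pairs were less close: seen from ZOU, ICE1 ranked 6302nd and KRS 10177th, and seen from ICE1, ZOU ranked 9221st. The rank of a pair depended on the side it was seen from. ALE1 ranked 659th as seen from ZOU. Seen from KRS, ZOU ranked 1826th, seen from GSO1, KRS ranked 783rd, and seen from GSO2, ICE1 ranked 909th. TWS1 lay beyond 83.1% to 90.3% of the ranked genes as seen from ZOU, ICE1, ALE1, GSO1 and GSO2, and beyond 56.5% as seen from KRS. The genes nearest to ZOU were AT1G13460, AT5G48770 and ACR11, with differences of 0.032, 0.042 and 0.047. Those nearest to ALE1 were SRG1, EMB2758 and AT2G16990, at 0.069, 0.081 and 0.082. Those nearest to KRS were AT1G15670, AT5G12460 and CYP76G1, at 0.080, 0.081 and 0.091. These are descriptions of 6 libraries.

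Of 17 other genes of embryo cuticle signalling, 13 were tested. Of these 1 fell and 12 did not pass, beside 6.72% of all tested genes called lower and 8.25% called higher, and their median log2 fold change was 0.03, beside 0.03 over all tested genes. The gene that fell was BKK1, a co-receptor kinase, with 3.87, 3.79 and 2.80 RPKM in DD25::IaaH 1 to 3 against 6.52, 5.50 and 7.08 RPKM in WT 1 to 3. Its log2 fold change was -0.79 ± 0.20 (SE), with an adjusted p of 0.0276 with limma, and the call was lost without each library except WT 2 (adjusted p 0.0533 to 0.0880). BKK1, like GSO1, lay within a range that the near-absent genes span. TPST, the enzyme that sulfates the TWS1 peptide, had 10.8 ± 1.59 RPKM in DD25::IaaH and 10.1 ± 0.598 RPKM in WT (SD, n = 3). ALE2 and ACR4, receptor kinases of the epidermis, had log2 fold changes of -0.09 and 0.03. RBOHD, an NADPH oxidase, was lower in all 3 DD25::IaaH libraries (2.03 to 2.27 RPKM) than in WT (3.42 to 4.11 RPKM), with an adjusted p of 0.0636. CIF2, a peptide that binds the same receptors in the root, had 2.38 RPKM in DD25::IaaH and 1.82 RPKM in WT, while CIF1 had no read in any library, where a count of 0 allows up to 3 reads.

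The ICE1 paralog SCRM2 fell, with 12.1, 14.3 and 12.6 RPKM in DD25::IaaH 1 to 3 against 16.4, 19.8 and 19.8 RPKM in WT 1 to 3. Its log2 fold change was -0.50 ± 0.14 (SE) with an adjusted p of 0.0444, and the call was lost without each library except WT 1 (adjusted p 0.0604 to 0.152). The stomatal partners of ICE1 were scarce. SPCH had 0.849, 0.703 and 0 RPKM in DD25::IaaH 1 to 3. In WT 1 to 3 it had 2.88, 2.45 and 0.380 RPKM, and it did not pass. MUTE and FAMA had 0 RPKM in each DD25::IaaH library and were below the filter. In WT 1 to 3 MUTE had 0.342, 0.136 and 0 RPKM, and FAMA had 0.0650, 0.129 and 0 RPKM. Both were thus above 0 only in WT 1 and WT 2, which also had reads on the most pseudogenes. The part of those libraries' differences in these values was not tested.

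Of 30 genes for the cuticle and its epidermal regulators, 26 were tested. Of these 3 rose, 1 fell and 22 did not pass, beside the shares over all genes of 8.25% and 6.72%, and the median log2 fold change was 0.30. GPAT8, an acyltransferase of cutin synthesis, had 1.89, 1.40 and 1.47 RPKM in DD25::IaaH 1 to 3 against 0.240, 0.298 and 0.334 RPKM in WT 1 to 3. It rose by 1.39 ± 0.30 (SE) on the log2 scale (adjusted p 0.0140), on 8, 5 and 6 reads in WT. At these low levels the size of the change depended on the scale, with log2 fold changes of 2.104 at a pseudocount of 0.1, 1.00 at a pseudocount of 1 and 2.43 with voom on rebuilt reads. KCS6, an enzyme of wax elongation, had 272, 275 and 301 RPKM in DD25::IaaH 1 to 3 against 172, 185 and 226 RPKM in WT 1 to 3, and rose by 0.55 ± 0.13 on the log2 scale (SE; adjusted p 0.0254). HTH, an oxidoreductase-like gene of the epidermis, had 15.9, 17.8 and 16.3 RPKM in DD25::IaaH against 6.72, 4.06 and 12.7 RPKM in WT (adjusted p 0.0433). DCR, an acyltransferase of cutin synthesis, fell to 65.6, 66.9 and 72.9 RPKM in DD25::IaaH, against 92.8, 99.3 and 83.3 RPKM in WT (adjusted p 0.0418). The calls of KCS6, HTH and DCR held without WT 3 and were lost without any other single library, with adjusted p of 0.0671 to 0.0957, 0.0943 to 0.121 and 0.0721 to 0.158. GPAT8 was lost without DD25::IaaH 1 (adjusted p 0.0772) and without DD25::IaaH 3 (0.0533).

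By its summed level, the cuticle list in WT 3 stood nearer to DD25::IaaH than in WT 1 and WT 2. The sum of the 30 genes was 2399, 2415 and 2453 RPKM in DD25::IaaH 1 to 3, against 1925, 1982 and 2388 RPKM in WT 1 to 3. Without LTPG1, the most abundant, the other 29 summed to 1959 to 2029 RPKM in DD25::IaaH and 1589 to 2022 RPKM in WT, with overlap. With all 6 libraries 4 of the 26 tested cuticle genes were called, beside 15.0% of all tested genes. Without WT 3, 14 of the 30 listed genes were called, and calls over the whole table also rose, from 3127 to 4133. The share of all tested genes called without WT 3 was not worked out. The count of 14 is therefore not read as a result about the cuticle. With all 6 libraries the groups did not overlap for 12 of the 26 tested cuticle genes, against 33.3% of all tested genes. DD25::IaaH was above WT for 9 of them, against 18.4% of all tested genes, and below WT for 3, against 14.9%. ATML1 and PDF2, homeodomain regulators of the epidermis, did not pass, with log2 fold changes of 0.02 and -0.22.

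Marker lists of the tissues in which these genes act are given beside the members. ESF1.2 and ESF1.3 encode small peptides of the endosperm around the embryo, the region where ZOU and ALE1 are known to be expressed. ESF1.2 had 65.7, 38.3 and 93.1 RPKM in DD25::IaaH 1 to 3, against 2.26, 3.14 and 4.18 RPKM in WT 1 to 3. Its log2 fold change was 4.11 ± 0.31 (SE; adjusted p 4.33e-05), with a 95% interval of 3.40 to 4.82, and the interval of ZOU was -0.58 to 0.14. ESF1.3 had 121, 86.3 and 145 RPKM in DD25::IaaH against 7.41, 3.27 and 9.91 RPKM in WT (adjusted p 8.21e-05), and ESF1.1 had at most 1 read in a library.

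Of 8 endosperm markers, 5 rose, beside 8.25% of all tested genes. MEA, IKU2 and EDE1 did not pass, with log2 fold changes of 0.09, -0.29 and -0.18. PHE1, an imprinted MADS-box gene, had 61.3 to 98.4 RPKM in DD25::IaaH and 2.61 to 4.92 RPKM in WT, and AGL62, a repressor of endosperm cellularization, had 3.54 to 4.76 RPKM in DD25::IaaH and 0.395 to 0.845 RPKM in WT. FIS2 had 3.58 to 4.22 RPKM in DD25::IaaH and 1.02 to 1.91 RPKM in WT, and FWA had 6.78 to 12.9 RPKM in DD25::IaaH and 2.01 to 5.14 RPKM in WT. MINI3 had 15, 21 and 29 reads in DD25::IaaH 1 to 3 and 3, 0 and 0 reads in WT 1 to 3. The call of FIS2 was lost without DD25::IaaH 1 or DD25::IaaH 3 (adjusted p 0.0702 and 0.05005), and that of FWA without any single library except WT 3 (adjusted p 0.0543 to 0.103). The summed level of the 8 genes was 84.0 to 129 RPKM in DD25::IaaH and 13.9 to 18.2 RPKM in WT. Most of the sum in DD25::IaaH was PHE1, and without it the other 7 genes summed to 22.7 to 30.1 RPKM in DD25::IaaH and 11.2 to 15.2 RPKM in WT. Neither sum overlapped between the genotypes, while the levels of ZOU, ALE1 and KRS did.

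Of 7 tested embryo markers, the homeobox gene WOX9 fell, with 6.62 to 10.2 RPKM in DD25::IaaH and 13.4 to 17.4 RPKM in WT (adjusted p 0.0113), and 6 did not pass, beside 6.72% of all tested genes called lower. LEC1, LEC2 and TMO5 had log2 fold changes of -0.10, 0.27 and 0.27, and WOX2, WOX8 and PLT2 of -0.35, -0.21 and -0.16. The median over the 7 tested embryo markers was -0.16, beside 0.03 over all tested genes. The summed level of all 8 embryo markers was 169 to 205 RPKM in DD25::IaaH and 206 to 214 RPKM in WT. Most of it was LEC1, and the other 7 summed to 36.9 to 48.5 RPKM in DD25::IaaH and 43.2 to 55.4 RPKM in WT, with overlap. Of 7 seed coat markers TT12, TT2 and BAN rose and TT10 fell, with adjusted p of 0.0210, 0.0138, 0.0149 and 0.000540, beside 8.25% and 6.72% of all tested genes. The call of TT12 was lost without any DD25::IaaH library or WT 1 (adjusted p 0.0589 to 0.0794), that of TT2 without DD25::IaaH 3 or WT 2 (0.0606 and 0.0545), and that of BAN without DD25::IaaH 2, DD25::IaaH 3, WT 1 or WT 2 (0.0531 to 0.0667). Markers of the silique wall, which dissection should remove, were called at neither of 2 tested genes. FUL and IND, which define valve and valve margin, had at most 0.389 and 1.00 RPKM in DD25::IaaH and 0.277 and 0.367 RPKM in WT. ALC and RPL were present in both genotypes, with means of 11.5 and 9.73 RPKM in DD25::IaaH and 11.9 and 11.7 RPKM in WT. Their log2 fold changes were -0.03 and -0.23 (unadjusted p 0.879 and 0.288 with limma). The part of these tissue markers in the values of the 7 genes was not tested.

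**Figure D5:**
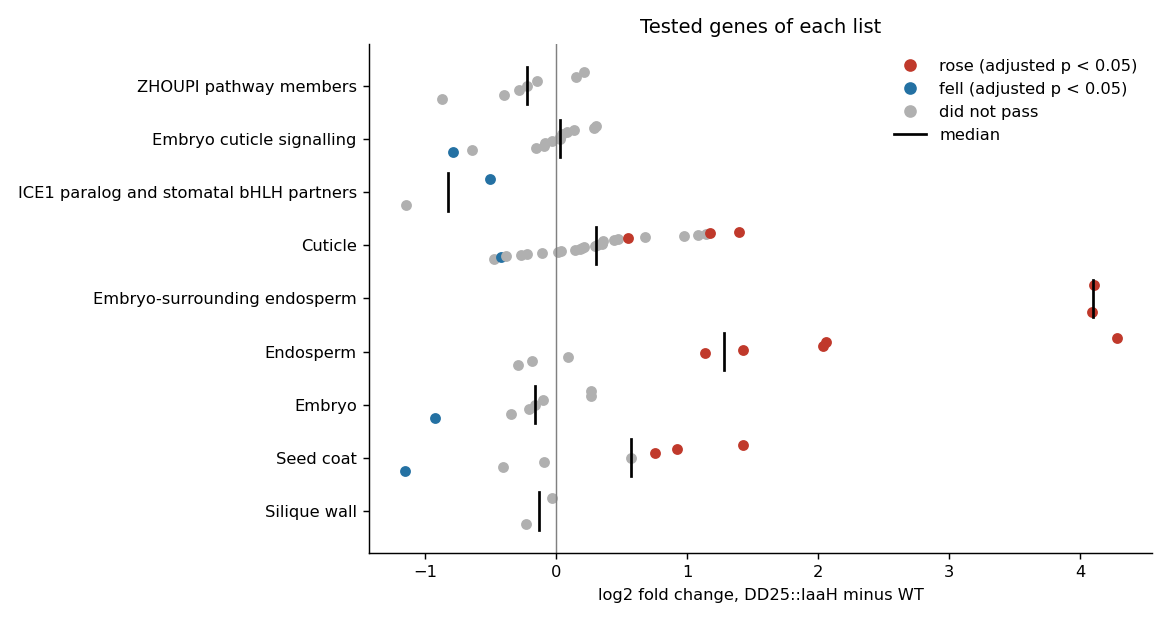
Log2 fold change, DD25::IaaH minus WT (horizontal axis), of every tested gene (points) of the 7 members, 3 pathway lists and 5 marker lists (rows), coloured by limma call, with the list median as a black bar. The 7 members lie between -0.87 and 0.21 with no call, and ESF1.2 and ESF1.3 lie near 4.1.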

How the data were processed

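The authors deposited RPKM values of 33323 loci in 6 libraries, from polyadenylated RNA read as paired 125-base reads per the labels' protocols. Their processing used TopHat2 2.1.0 and the build TAIR10, per the submitters' processing notes. The sources used here do not name the counting tool or its strand setting. Columns were matched to samples by their labels. A RefSeq gene table (TAIR10.1) matched 32835 loci and was used for names, exon lengths and overlaps.

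Whole reads and depths were rebuilt from the RPKM steps, within 0.01 reads or the rounding of the file, for 99.3% of the 31475 loci above 0. The read numbers of a locus are fixed only up to a common factor, and the length nearest the reference exon length was taken. Counting intervals cover counting error only. Tested were genes averaging 0.5 RPKM or more, on log2(RPKM + 0.5), a scale that understates changes of low genes, with limma 3.58.1 in R 4.3.3 (eBayes with trend, genotype term only, two-sided, Benjamini and Hochberg adjustment over 20880 genes). The test was also run on simulated reads, and that outcome is not given here. RPKM is not a count, so voom on rebuilt reads was an alternative.

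The 7 members and all lists were chosen with earlier results of these data known. Named are all members, up to 6 called genes of each list or otherwise the one of lowest adjusted p, and the 3 genes nearest in profile to ZOU, ALE1 and KRS. TPST, ALE2, ACR4, RBOHD, the CIF genes, SPCH, MUTE, FAMA, ATML1, PDF2 and ESF1.1 were named after the values were seen. So were MEA, IKU2, EDE1, WOX2, WOX8, LEC1, LEC2, TMO5, PLT2, LTPG1, FUL, IND and ALC. Sums without the most abundant gene of a list were also added then. Alternatives changed the pseudocount (0.1, 1), filter (none, 2 RPKM), scaling, variance trend, library weights, replicate block and libraries used.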

Additional observations from a re-analysis of the deposited data

How the results depend on the processing

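Of the 7 members, ZOU, ICE1 and GSO2 kept their direction and did not pass under any of the 18 alternatives run. TWS1 passed with library weights (log2 fold change -1.01, adjusted p 0.0389) and without WT 3, so 1 member was then called, and it ranged from -1.25 to -0.46 with 1 library left out (0 to 1 members called). Without WT 1 and WT 2 together, ALE1, KRS and GSO1 changed sign to 0.091, 0.13 and 0.027. With 1 library left out, ALE1 ranged from -0.33 to 0.014 (without WT 2), the ALE1 to ZOU log2 ratio difference from -0.066 (without WT 3) to 0.15, with -0.0021 without DD25::IaaH 2, and that of KRS to ZOU from -0.46 to 0.033 (without WT 1). The cause was not tested. Calls over the whole table were 3127, from 1912 to 4133 with 1 library left out and 1063 without WT 1 and WT 2, where fewer libraries were fitted. Without WT 1, WT 2, DD25::IaaH 1 and DD25::IaaH 3 in turn they were 2059, 1978, 1912 and 2015.

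The 3 pathway lists, with 13, 2 and 26 tested genes, held 6 calls, beside 3127 (15.0%) over the whole table. They held 3 without the filter (2742 over the whole table) and 3 without the variance trend (2679). With library weights they held 15 (4260 over the whole table), and with voom on rebuilt reads 12 (3377). With 1 library left out the lists held 0 to 15 calls, beside 1912 to 4133 over the whole table. With the replicate block the lists held 2. Same-numbered libraries of the 2 genotypes did not deviate together (correlations over genes of -0.08, -0.03 and -0.10), so the numbers were not taken as pairs; the block called 0 of the 7 members and 2429 genes in all. A planned count of E-box motifs in the promoters was not run. The references used held no promoter sequences, and the reference assembly differs in name from the authors' build. Depth limits GSO1 most, with 117 to 181 reads in DD25::IaaH and 154 to 381 reads in WT.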
